A study of Mus musculus with 5 samples.

Results

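A set of 9 genes of conventional dendritic cells were followed across the arrays: Itgax, Zbtb46, Xcr1, Clec9a, Batf3, Cd209a and Clec10a, which mark these cells or their subsets, and Fscn1 and Marcksl1, which are raised when dendritic cells mature. They were chosen by symbol from earlier results of the same arrays, in which conventional dendritic cell genes read higher in the mutant as a group but Cd209a lower, so their differences are given as a description and without a test. Of the 9 genes, 8 had at least 1 probe set in the platform annotation, with 17 probe sets in all, out of 18193 genes with a probe set of their own. Clec9a had none under its symbol and has no value. A filter that dropped the dimmer part of the probe sets, by their mean signal, left 11392 genes, among them 7 of the 9; Xcr1 was below it.

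The samples were bone marrow cells of FVB mice at 4 weeks of age, flushed from tibias and femurs and enriched with magnetic beads for B220, a surface form of CD45 on developing B cells and on plasmacytoid dendritic cells. The mutant group held 3 arrays of mice with a kinase-dead knock-in on both alleles of IKKα (labelled IKKαK44A/K44A, KA/KA below), and the control group 2 arrays of wild-type littermates (WT). IKKα is a kinase of the alternative NF-κB pathway, and the mutation is in every cell of the animal. Neither the labels nor the series text says whether an array holds RNA of 1 mouse or of several, so the spread between arrays may be partly technical.

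Conventional dendritic cells take up antigen and present it to T cells. The cDC1 subset, which depends on the transcription factor Batf3, carries the chemokine receptor Xcr1 and the dead-cell receptor Clec9a and is known for presenting antigen to CD8 T cells. The cDC2 subset is more varied and carries C-type lectins, which it shares with monocyte-derived cells and macrophages. On maturation, dendritic cells of both subsets switch on the actin-bundling protein fascin, encoded by Fscn1, and the chemokine receptor that guides them to lymph nodes.

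The arrays did not all look like B220+ marrow. On KA/KA 2, KA/KA 3 and WT 2 the summed signal of 11 lung epithelial genes was 109862 to 173528, against 482 to 541 on KA/KA 1 and WT 1, and that of 11 B-lineage genes was 2534 to 5243, against 67358 to 79145. The poly-A control probe sets, which carry no mouse RNA, divided the arrays in the same way, with medians of 46.9 to 249 against 7305 to 11896. KA/KA 2, KA/KA 3 and WT 2 are therefore called the lung-like arrays and KA/KA 1 and WT 1 the marrow-like pair, and KA/KA is set against WT inside each. The pair has 1 array a genotype and the lung-like arrays a single WT array, so neither comparison has a replicate of WT. Across 11392 genes, limma called 0% in either direction at an adjusted p of 0.05, over the 5 arrays and again when the model took in the array set. At an unadjusted p under 0.05 there were 25 and 311 genes. Signals are given as log2(signal + 16), a scale on which no signal reads 4 and on which changes of dim genes are understated. The median of all probe sets lay at 6.80 to 7.17 on the 5 arrays, and probe sets under it are called dim.

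Fscn1 and Marcksl1 are shown by the sequence around their start sites because they read higher in KA/KA in both array sets, and Itgax because its promoter is a well-used label for dendritic cells. Each run is 250 bases before and 50 bases after a RefSeq transcript start on GRCm38.p6, 5′ to 3′ on the strand of the gene, with motif matches in capitals.
Fscn1, chr5:142960105-142960404, plus strand: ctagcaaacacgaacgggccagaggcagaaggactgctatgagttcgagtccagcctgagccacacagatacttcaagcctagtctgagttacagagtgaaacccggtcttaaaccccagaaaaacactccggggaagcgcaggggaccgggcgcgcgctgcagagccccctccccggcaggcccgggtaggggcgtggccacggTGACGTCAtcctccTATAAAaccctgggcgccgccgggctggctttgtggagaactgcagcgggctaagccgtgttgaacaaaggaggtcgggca
Marcksl1, chr4:129513331-129513630, plus strand: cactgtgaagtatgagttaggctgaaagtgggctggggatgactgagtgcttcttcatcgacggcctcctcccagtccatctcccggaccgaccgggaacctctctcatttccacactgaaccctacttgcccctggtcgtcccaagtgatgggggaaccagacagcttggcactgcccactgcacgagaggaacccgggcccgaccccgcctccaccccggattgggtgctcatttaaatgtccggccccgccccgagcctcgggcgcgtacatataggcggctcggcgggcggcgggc
Itgax, chr7:128129300-128129599, plus strand: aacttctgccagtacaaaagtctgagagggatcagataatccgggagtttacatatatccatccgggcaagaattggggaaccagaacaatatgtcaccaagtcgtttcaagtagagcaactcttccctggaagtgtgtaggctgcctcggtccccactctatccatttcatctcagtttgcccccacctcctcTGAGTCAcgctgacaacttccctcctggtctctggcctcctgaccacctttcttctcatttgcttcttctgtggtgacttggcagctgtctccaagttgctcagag
A search of both strands covered 6 motifs in 8 of the 9 promoters. Clec10a was not in the table. The capitals in Fscn1 mark TGACGTCA, the cyclic AMP response element, at base -45, and the TATA box letters TATAAA at base -31. The first stood in 1.79% and the second in 13.6% of all 32851 promoters of this length. Both motifs were added after the Fscn1 sequence had been read, so these matches are only a description. The windows of Cd209a, Clec9a and Xcr1 also held the TATA box letters, on the opposite strand. The capitals in Itgax mark TGANTCA, the letters bound by AP-1 and by BATF factors, at base -56, found in 7.81% of all promoters and also in that of Zbtb46, whose window lies at a transcript start inside the gene and not at its annotated 5′ end. Marcksl1 held none of the 6. The NF-κB letters GGANTTTCC (1.25% of promoters) and the PU.1 letters GAGGAAGT (3.20%) were in none of the 8 windows, and the interferon response letters GAAANNGAA (8.56%) were in that of Clec9a alone. The Fscn1 and Marcksl1 windows were rich in G and C, with 61.7% and 63.7%, against a median of 52.7% over all promoters. That of the subset gene Batf3 was the richest of the 8, with 75.7%.

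The maturation genes read higher in KA/KA than in WT in both array sets. Fscn1, by its brightest probe set, read 11.46 on KA/KA 2 and 11.84 on KA/KA 3, against 9.05 on WT 2. In the marrow-like pair it read 8.78 on KA/KA 1, against 7.60 on WT 1. The mean of the lung-like KA/KA arrays was 11.65 ± 0.27 (SD, n = 2), which is 2.60 log2 units above WT 2, and the pair differed by 1.18. In linear signal this is 2805 and 3642 on the lung-like KA/KA arrays, against 512 on WT 2, and 423 on KA/KA 1, against 178 on WT 1. Fscn1 did not separate the genotypes over all 5 arrays, since WT 2 lay above KA/KA 1.

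Marcksl1, which encodes an actin-binding relative of the kinase C substrate MARCKS, read 10.95 on KA/KA 2 and 11.58 on KA/KA 3, against 9.15 on WT 2, and 11.84 on KA/KA 1, against 10.68 on WT 1. The lung-like KA/KA mean was 11.27 ± 0.45 (SD, n = 2), 2.12 above WT 2, and the pair differed by 1.16. All 3 KA/KA arrays lay above both WT arrays. That placed it with 4.12% of all genes, and it was the only one of the 7 kept genes to do so. As a description, the estimate of KA/KA minus WT with the array set as a block was 1.99 ± 0.39 for Fscn1 and 1.71 ± 0.34 for Marcksl1 (SE, 5 arrays). For the other kept members it ran from -0.96 ± 0.37 for Cd209a to 1.09 ± 0.49 for Itgax. With 1 WT array in each set, these SEs hold no spread between WT replicates of a set.

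Fscn1 and Marcksl1 were also over 1 log2 unit higher in the pair and on both lung-like KA/KA arrays, a rule met by 15 of 11392 genes (0.132%). No subset gene met it. Taken separately, 2.83% of genes were over 1 log2 unit higher on KA/KA 1 than on WT 1, and 3.83% were so on both lung-like KA/KA arrays relative to WT 2. The other genes that met both rules were Ms4a4b, Ccl8, Rnase2a, Slc26a4, Ccl12, Retnla, Ctla4, Ccl22, Socs3, Slc7a8, Prg2, Epx and Ccnf, listed here after their values were seen. Since Fscn1 and Marcksl1 were chosen with the KA/KA against WT contrast known, their place in this short list is no independent support.

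**Figure D1:**
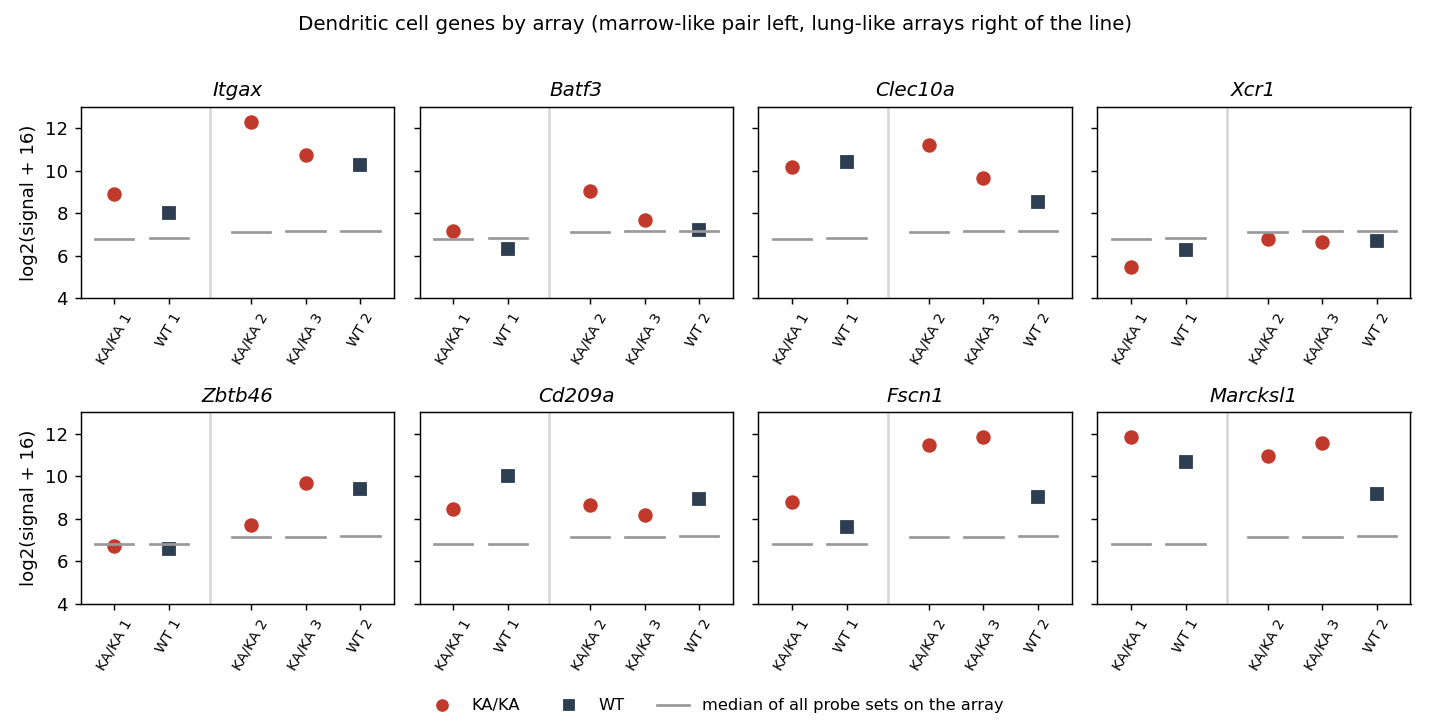
Signal, as log2(signal + 16), of the brightest probe set of each of the 8 measured genes on every array, with circles for KA/KA, squares for WT and a grey bar at the median of all probe sets on that array. Fscn1 and Marcksl1 lie higher in KA/KA on each side of the line, while Xcr1 stays under the grey bar on all 5 arrays.

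On the lung-like arrays the weaker probe sets of Fscn1 shared its direction but not its size. All 4 Fscn1 probe sets were higher on both lung-like KA/KA arrays than on WT 2, by 2.60, 0.59, 0.89 and 1.17 in order of brightness. In the pair, 3 of the 4 were higher and the dimmest was lower, and the differences were 1.18, 0.13, 0.11 and -0.29. The 2 dimmest lay under the array median on every array. The brightest probe set therefore carries the size of the Fscn1 difference, and the next brightest, 1448378_at, read 8.44 and 8.79 on KA/KA 2 and KA/KA 3, against 8.03 on WT 2.

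For Marcksl1 the brightest probe sets differed together and the weaker ones less. The probe set next in brightness, 1415922_s_at, read 10.09 and 10.59 on KA/KA 2 and KA/KA 3, against 8.73 on WT 2, and 10.99 on KA/KA 1, against 9.90 on WT 1. The third, 1435627_x_at, differed by 0.30 on the lung-like arrays and by 0.46 in the pair. The fourth, 1435415_x_at, was lower on KA/KA 2 (6.17) and higher on KA/KA 3 (6.68) than on WT 2 (6.54), all of them dim, and 0.82 higher on KA/KA 1 than on WT 1. All 4 Marcksl1 probe sets end in _x_at or _s_at, the maker's marks for probes that may also bind other transcripts, so signal from related transcripts cannot be told apart from that of Marcksl1.

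**Figure D2:**
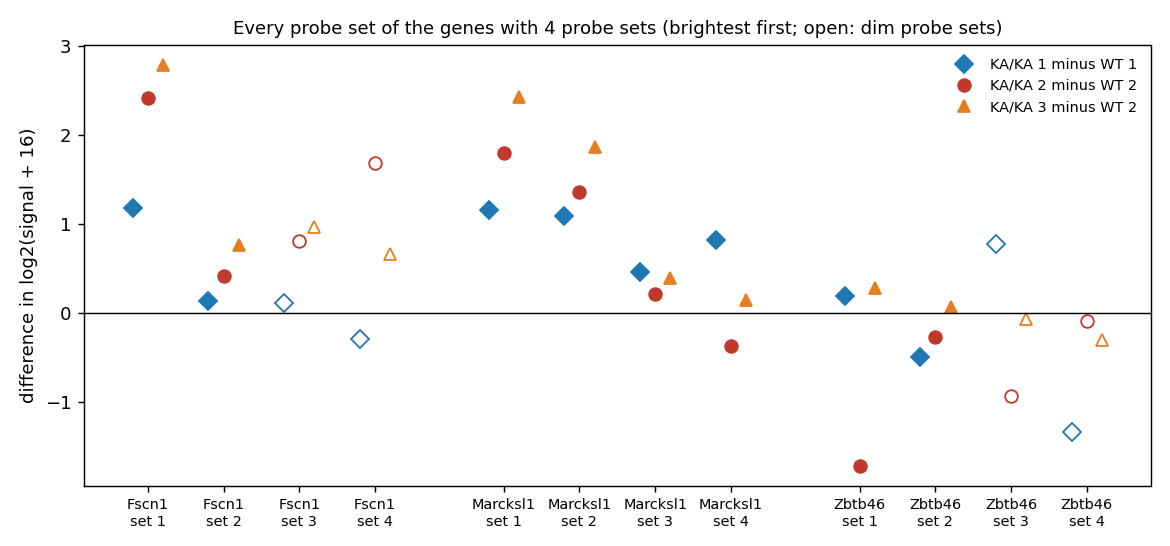
Difference in log2(signal + 16) between KA/KA and WT for each probe set of Fscn1, Marcksl1 and Zbtb46, brightest first, with diamonds for KA/KA 1 minus WT 1, circles for KA/KA 2 minus WT 2 and triangles for KA/KA 3 minus WT 2; open symbols are probe sets under the filter. The brightest probe sets of Fscn1 and Marcksl1 lie above 1 in every comparison, and no Zbtb46 probe set is above 0 in all 3.

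The subset genes had no common direction. Over the 6 with a value, the median of KA/KA minus WT was 0.59 on the lung-like arrays and -0.02 in the pair, against means of 2.36 and 1.17 for Fscn1 and Marcksl1. The maturation genes thus exceeded the median of the subset genes by 1.77 on the lung-like arrays and by 1.19 in the pair. The lung-like value depended on the array: it was 1.14 from KA/KA 2 alone and 2.24 from KA/KA 3 alone. It was 0.70 when the kept probe sets of each gene were averaged, and 0.78 when only genes in the upper 25% of signal were used, which left 2 subset genes. The median difference of all 11392 genes was -0.03 on the lung-like arrays and 0.08 in the pair.

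**Figure D3:**
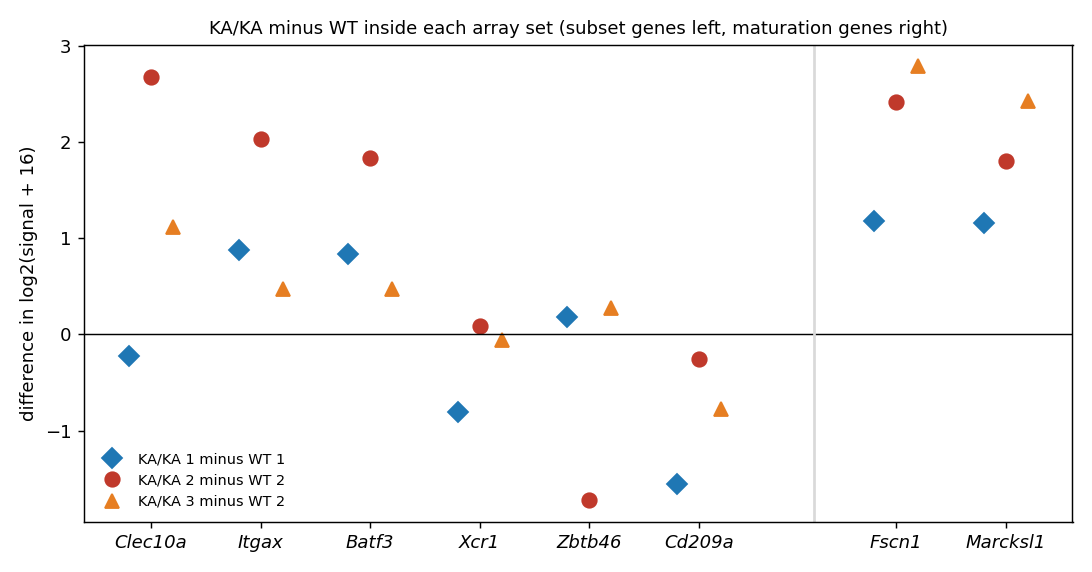
Difference in log2(signal + 16) between KA/KA and WT for the brightest probe set of each gene, with diamonds for KA/KA 1 minus WT 1, circles for KA/KA 2 minus WT 2 and triangles for KA/KA 3 minus WT 2. The 3 symbols of Fscn1 and Marcksl1 all lie above 1, those of Cd209a all below 0, and those of Clec10a on both sides of 0.

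Itgax encodes CD11c, the integrin chain by which dendritic cells are usually gated and which alveolar macrophages also carry. It read 12.28 on KA/KA 2 and 10.72 on KA/KA 3, against 10.25 on WT 2, and 8.90 on KA/KA 1, against 8.02 on WT 1. Itgax was above WT in both sets, but KA/KA 2 stood 1.56 units over KA/KA 3, and KA/KA 3 was 0.47 above WT 2. Across sets it was 2.63 higher on the lung-like arrays, where all 3 arrays lay over 1 unit above both arrays of the pair, as 15.6% of all genes did.

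Zbtb46, a zinc finger factor that among immune cells marks conventional dendritic cells and is also made by endothelial cells, did not follow Itgax. By its brightest probe set it read 7.69 on KA/KA 2 and 9.69 on KA/KA 3, against 9.42 on WT 2. On the marrow-like pair it read 6.74 on KA/KA 1 and 6.56 on WT 1, both dim. KA/KA 2, the array with the highest Itgax, had the lowest Zbtb46 of the lung-like arrays by 1.72 units. The 3 other Zbtb46 probe sets also read lower on KA/KA 2 than on WT 2, by 0.27, 0.94 and 0.10.

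Of the cDC1 genes, Batf3 followed Itgax and Xcr1 was dim. Batf3 read 9.03 on KA/KA 2 and 7.67 on KA/KA 3, against 7.19 on WT 2, and 7.15 on KA/KA 1, against 6.31 on WT 1. It was above the array median on 4 of the arrays, by the widest margin on KA/KA 2. Xcr1 read 6.78 on KA/KA 2 and 6.64 on KA/KA 3, against 6.69 on WT 2, and 5.45 on KA/KA 1, against 6.25 on WT 1. With the receptor that defines cDC1 dim on all 5 arrays and Clec9a without a probe set, the label of cDC1 rests on Batf3 alone among these genes. Batf3 is also made by activated T cells.

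Both cDC2 lectins were above the array median on all 5 arrays, and they ran in different directions on the lung-like arrays. Clec10a, a galactose-binding lectin shared with macrophages, read 11.21 on KA/KA 2 and 9.64 on KA/KA 3, against 8.52 on WT 2, but 10.19 on KA/KA 1, against 10.42 on WT 1. Both lung-like KA/KA arrays were over 1 unit above WT 2, while the pair differed by -0.23. Cd209a, a mouse relative of the human lectin DC-SIGN, read 8.67 on KA/KA 2 and 8.15 on KA/KA 3, against 8.93 on WT 2, and 8.44 on KA/KA 1, against 9.99 on WT 1. All 3 KA/KA arrays were below both WT arrays, as for 2.66% of all genes. Most of the Cd209a difference lay in the pair (-1.56), where 1.58% of genes were over 1 unit lower on KA/KA 1. On the lung-like arrays the mean difference was -0.51, and KA/KA 2 was only 0.26 below WT 2. No member was over 1 unit lower on both lung-like KA/KA arrays, as 1.76% of genes were.

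By their brightest probe sets, the kept genes differed in the order of the 3 lung-like arrays. Itgax, Batf3 and Clec10a ran KA/KA 2 over KA/KA 3 over WT 2, an order shared by 18.7% of all genes. Fscn1 and Marcksl1 ran KA/KA 3 over KA/KA 2 over WT 2, the order of 14.8%. Zbtb46 ran KA/KA 3 over WT 2 over KA/KA 2, the order of 15.7%. Cd209a ran WT 2 over KA/KA 2 over KA/KA 3, the order of 14.3%. No kept member had the order KA/KA 2 over WT 2 over KA/KA 3 (13.5% of genes) or WT 2 over KA/KA 3 over KA/KA 2 (23.1%). Xcr1 spanned only 0.15 units on these arrays and has no usable order. Some other orders also rest on small gaps between single arrays. KA/KA 3 stood over WT 2 by 0.27 for Zbtb46 and over KA/KA 2 by 0.37 for Fscn1. For Cd209a, KA/KA 2 lay 0.26 below WT 2. Dimmer probe sets could differ in order: the dimmest of Fscn1 had the order of Itgax. The Zbtb46 probe sets 1429168_at and 1453856_at were highest on WT 2. These arrays hold RNA of many cell types, in which fewer cells of a type and less RNA per cell cannot be told apart.

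Markers of other cells moved with the orders of Itgax, Zbtb46 and Fscn1. The order of Cd209a (14.3% of all genes) was held by at most 2 genes of any list of other cells. The highest counts were 2 of 14 endothelial and 2 of 7 erythroid genes. The order of Itgax, Batf3 and Clec10a (18.7% of all genes) was that of 9 of 14 monocyte and macrophage genes. The summed signal of the 14 was 96196 and 68287 on KA/KA 2 and KA/KA 3, against 29937 on WT 2. In the pair it was 60387 on KA/KA 1, against 62508 on WT 1. C1qa, a complement subunit made by macrophages, read 13.34 and 12.42 on KA/KA 2 and KA/KA 3, against 9.94 on WT 2. Ms4a7, a membrane protein of macrophages, read 12.29 and 10.11, against 8.03 on WT 2. Of 11 kept alveolar macrophage genes, 4 had the order of Itgax (18.7% of all genes) and 5 that of Fscn1 (14.8%). The summed signal of the 12 with a probe set was 79054 and 67962, against 32625 on WT 2. Atp6v0d2, a proton pump subunit of these macrophages, read 13.23 and 11.75 on KA/KA 2 and KA/KA 3, against 10.13 on WT 2. Marco, a scavenger receptor of alveolar macrophages, read 4.81 on KA/KA 2, near the bottom of the scale, and 10.35 on KA/KA 3, against 4.64 on WT 2. The other markers of these lists named here were bright on all 3 arrays, and their part in the Itgax, Batf3 and Clec10a differences was not tested.

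Zbtb46 shared its lowest lung-like array, KA/KA 2, with most of the endothelial genes. Of 14 endothelial genes, 6 had the order of Zbtb46 (15.7% of all genes). Another 6 had WT 2 over KA/KA 3 over KA/KA 2, the commonest order over all genes (23.1%). KA/KA 2 was thus the lowest array for 12 of the 14. Their summed signal was 24140 on KA/KA 2 and 79149 on KA/KA 3, against 78499 on WT 2, and 5162 on KA/KA 1, against 3633 on WT 1. Cdh5, the cadherin of endothelial junctions, read 10.75 and 12.66 on KA/KA 2 and KA/KA 3, against 13.38 on WT 2. Kdr, a receptor for vascular endothelial growth factor, read 9.99 and 9.74, against 12.22 on WT 2. Neither Cdh5 nor Kdr had the order of Zbtb46, and Kdr was lowest on KA/KA 3. Erythroid genes, listed because red cell precursors also make Zbtb46, summed to 8670 and 4690 on KA/KA 2 and KA/KA 3, against 7741 on WT 2. In the pair they summed to 10465 on KA/KA 1, against 15919 on WT 1. Tfrc, the brightest of them on KA/KA 2, read 12.51 there, 11.28 on KA/KA 3 and 11.33 on WT 2. Of 7 erythroid genes, 4 were lower on both lung-like KA/KA arrays (37.4% of all genes) and 1 higher (33.4%). Their median difference on the lung-like arrays was -0.48. The part of these cells in the Zbtb46 values was not tested.

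The order of Fscn1 and Marcksl1 was that of 7 of 10 kept T and NK cell genes, against 14.8% of all genes. The 7 were Cd3e, Cd3d, Cd3g, Cd8a, Cd8b1, Cd5 and Lat. The NK cell genes Ncr1, Nkg7 and Klrd1 had other orders, and Ncr1 was lower on both KA/KA arrays than on WT 2. The summed signal of the 11 T and NK genes with a probe set was 4753 and 10840 on KA/KA 2 and KA/KA 3, against 2741 on WT 2. Cd5, an inhibitory receptor of T cells, read 8.89 and 10.46, against 7.21 on WT 2. Cd3d, a subunit of the T cell receptor complex, read 10.08 and 11.88, against 8.59 on WT 2. In the pair most T and NK genes ran opposite to Fscn1, with a median difference of -0.30. Their sum was 4241 on KA/KA 1, against 7662 on WT 1, and Cd3d read 9.56 on KA/KA 1, against 11.29 on WT 1. Of the 10 kept genes only Cd5 was higher on KA/KA 1, with 7.11, against 6.92 on WT 1. Of 9 neutrophil granule genes, 5 were higher on both lung-like KA/KA arrays (33.4% of all genes) and 1, Ltf, was lower on both (37.4%). Their sums were 57802 and 88546 on KA/KA 2 and KA/KA 3, against 7701 on WT 2, and 133057 on KA/KA 1, against 201870 on WT 1. S100a9, a calcium-binding protein of neutrophils, read 13.81 and 14.87, against 10.67 on WT 2. Neuronal genes, relevant because neurons also make fascin, summed to 728 and 1821 on KA/KA 2 and KA/KA 3, against 3306 on WT 2. In the pair they summed to 177 on KA/KA 1, against 205 on WT 1. Only 2 of these 6 genes, Stmn2 and Map2, passed the filter. Tubb3, Snap25, Syt1 and Nefl were dim on all 5 arrays. In the pair the B-lineage sum was 67358 on KA/KA 1 and 79145 on WT 1. The part of these cells in the Fscn1 and Marcksl1 values was not tested.

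**Figure D4:**
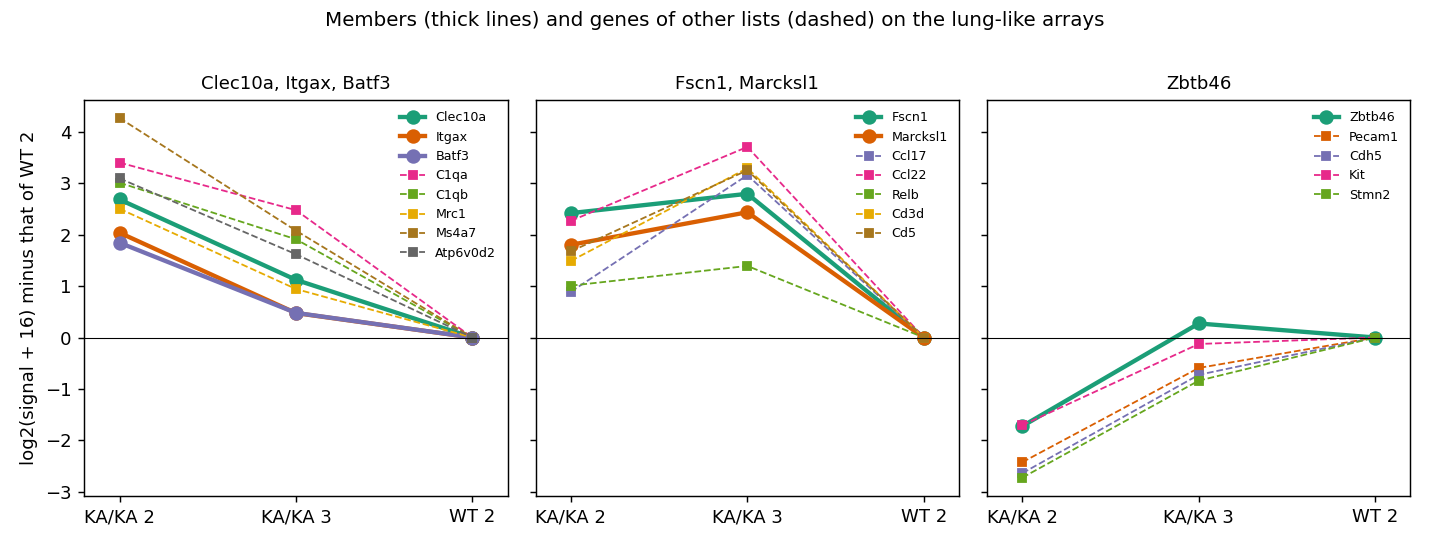
Signal on the lung-like arrays relative to WT 2, as a difference in log2(signal + 16), for 3 groups of dendritic cell genes (thick lines) and genes of other lists (dashed). The dashed genes are a selection, so the shape they share within a panel is no result about their lists. In the left panel all genes drawn are highest on KA/KA 2 and lowest on WT 2. In the middle panel all drawn are highest on KA/KA 3, and in the right panel KA/KA 2 is lowest. Among genes named in the text and not drawn, Marco was highest on KA/KA 3, Cd83 was highest on KA/KA 2 and Kdr was lowest on KA/KA 3.

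Other maturation genes of dendritic cells were read from a list of 24, of which 22 had a probe set and 19 passed the filter. On the lung-like arrays, 13 of the 19 were higher on both KA/KA arrays than on WT 2 and 0 were lower on both, with 33.4% and 37.4% of all genes in these classes. Their median difference was 0.80, but it was -0.03 in the pair, where 8 of 19 were higher. limma called 0 of them over the 5 arrays and 0 in the blocked model, where 1 and 3 genes had an unadjusted p under 0.05. The lean on the lung-like arrays was not particular to maturation genes. Of 14 monocyte and macrophage genes, 13 were higher on both KA/KA arrays and 0 lower on both, with a median of 2.01. For 10 T and NK genes the counts were 7 and 1, with a median of 1.42. For 14 endothelial genes they were 0 and 8, with a median of -0.93.

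Of the 19 kept genes, the chemokines Ccl22 and Ccl17 had the largest mean differences on the lung-like arrays. Ccl22, which attracts regulatory T cells, read 9.14 and 10.57 on KA/KA 2 and KA/KA 3, against 6.87 on WT 2, and 6.04 on KA/KA 1, against 4.47 on WT 1. Ccl17, which binds the same receptor, read 8.08 and 10.35, against 7.20 on WT 2, and 5.43 on KA/KA 1, against 4.39 on WT 1. In the pair both were dim, and the WT 1 values are close to the bottom of the scale. Relb, the NF-κB subunit needed for dendritic cell maturation, read 9.53 and 9.91 on KA/KA 2 and KA/KA 3, against 8.52 on WT 2, and 9.44 on KA/KA 1, against 8.62 on WT 1.

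Other maturation genes were higher on both lung-like KA/KA arrays and differed by less than 1 unit in the pair. Birc3, an inhibitor of apoptosis induced by NF-κB, read 11.44 and 12.28 on KA/KA 2 and KA/KA 3, against 10.48 on WT 2, but 11.81 on KA/KA 1, against 12.08 on WT 1. The costimulatory gene Cd83 was 1.38 above WT 2 in the mean and 0.27 above WT 1 in the pair. Pdcd1lg2, a ligand of PD-1, was 1.23 above WT 2, the adaptor Samsn1 1.55 and the transcription factor Stat4 1.33, with pair differences of 0.19, -0.56 and -0.02. Birc3, Samsn1 and Stat4 had the order of Fscn1 on the lung-like arrays, and Cd83 and Pdcd1lg2 that of Itgax. Ccr7, the receptor that guides mature dendritic cells to lymph nodes, read 8.10 on KA/KA 2 and 10.42 on KA/KA 3, against 8.15 on WT 2, and 10.07 on KA/KA 1, against 10.59 on WT 1. Ccr7 is also made by B and T cells. Cd40 likewise was above WT 2 on KA/KA 3 only, and Il12b was dim on all 5 arrays.

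Further genes of the subsets gave no common direction for cDC1 and mostly higher values for cDC2 on the lung-like arrays. Of 10 kept cDC1 genes, 5 were higher on both lung-like KA/KA arrays than on WT 2 (33.4% of all genes) and 4 lower on both (37.4%). The median was 0.13. Irf8, the factor that directs cDC1 and also acts in B cells, read 10.41 and 10.72, against 10.34 on WT 2. Id2, an inhibitor of E proteins that innate lymphocytes and T cells also make, read 12.76 and 12.38, against 11.22 on WT 2. Cd8a, a coreceptor that T cells also carry, read 8.20 and 8.58, against 7.12 on WT 2. Cadm1, an adhesion molecule of cDC1 and of epithelium, was lower on both KA/KA arrays, with 11.69 and 11.60, against 12.39 on WT 2. The median over these genes in the pair was 0.12.

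Of 8 kept cDC2 genes, 6 were higher on both lung-like KA/KA arrays (33.4% of all genes) and 2 lower (37.4%). The order of Clec10a was that of 5 (18.7% of all genes). Itgam, the CD11b chain of myeloid cells, read 9.02 and 7.24 on KA/KA 2 and KA/KA 3, against 5.90 on WT 2, and 9.34 on KA/KA 1, against 9.33 on WT 1. Clec4a2, a C-type lectin of myeloid cells, read 9.65 and 9.65, against 8.08 on WT 2. Sirpa, an inhibitory receptor of myeloid cells, read 12.88 and 11.58, against 10.99 on WT 2. Mgl2, the close relative of Clec10a, ran the other way, with 7.96 and 7.81, against 8.67 on WT 2, and 6.71 on KA/KA 1, against 7.07 on WT 1. The median of the 8 was 1.05 on the lung-like arrays and 0.20 in the pair. Most of these genes are shared with monocytes, macrophages and neutrophils.

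General dendritic cell genes leaned neither way. Of 14 kept, 6 were higher on both lung-like KA/KA arrays (33.4% of all genes) and 5 lower on both (37.4%). The median was 0.16, and the pair gave -0.02. Cd200r1, an inhibitory receptor of myeloid cells, read 9.39 and 7.94 on KA/KA 2 and KA/KA 3, against 6.95 on WT 2, and 7.90 on KA/KA 1, against 8.55 on WT 1. Slamf7, a receptor also of NK and plasma cells, read 7.94 and 7.60, against 6.41 on WT 2. Dpp4, a cell-surface peptidase, was lower, with 10.21 and 10.14, against 11.23 on WT 2. Flt3, the receptor that drives dendritic cell formation, read 6.90 and 7.48 on KA/KA 2 and KA/KA 3, against 7.08 on WT 2, and 8.35 on KA/KA 1, against 8.02 on WT 1. Kmo, an enzyme of tryptophan breakdown, was bright only on the pair, with 9.89 on KA/KA 1 and 9.95 on WT 1. Of 11 kept genes of plasmacytoid dendritic cells, which the B220 beads can also collect, 3 were higher on both lung-like KA/KA arrays (33.4% of all genes). Another 3 were lower on both (37.4%), and the median of the 11 in the pair was -0.60. limma called 0 genes of these 4 lists in either fit, with 0 at an unadjusted p under 0.05 over the 5 arrays and 0, 1, 1 and 1 in the blocked model.

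Between the array sets, both the subset genes and the maturation genes went in different directions. Of the 7 kept genes, Itgax (2.63), Zbtb46 (2.29), Batf3 (1.23) and Fscn1 (2.59) had higher means on the lung-like arrays. Cd209a (-0.63), Clec10a (-0.51) and Marcksl1 (-0.70) had lower means there. All 3 lung-like arrays lay above both arrays of the pair for Itgax, Zbtb46, Batf3 and Fscn1, as for 35.4% of all genes, and for none of the 7 did they all lie below, as for 30.5%, or by over 1 unit (7.78%). The sign for Marcksl1 turned when WT 2 was left out (0.006), and so did that of Clec10a (0.12), while that of Cd209a turned without WT 1 (0.15).

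The genes with the most similar profiles over the 5 arrays were found by the root mean square distance of values centred on each gene's own mean. For Itgax they were Bhlhe40, a transcription factor of activated immune cells (0.13 log2 units), and Pla1a, a phospholipase (0.15). Zbtb46 was nearest to Dll1, a Notch ligand (0.15), and Kit, the stem cell factor receptor, also of lung endothelium and mast cells (0.16). Batf3 was nearest to Tmem106a (0.12), and Clec10a to the motor protein Myo5a (0.18). Nearest to Fscn1 stood Cd14, the lipopolysaccharide co-receptor of myeloid cells, at 0.31, and Cd6, a T cell surface protein, at 0.32. Marcksl1 lay nearest to Ptpn22, a phosphatase of lymphocytes (0.23), and to the coagulation factor F5 (0.29). Cd209a had Bola3 at 0.22. On the lung-like arrays alone, Marcksl1 was nearest to Ikzf3 (0.03), a transcription factor of lymphocytes, which read 9.85 and 10.53 on KA/KA 2 and KA/KA 3, against 8.11 on WT 2. Fscn1 lay nearest to Abcb8 (0.04) there. The names only place the members among the other genes on these 5 arrays.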

How the data were processed

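Per the labels' protocols, 150 ng of RNA from B220+ bone marrow cells was labelled for each of 5 Affymetrix mouse arrays, 3 of KA/KA and 2 of WT mice. The authors deposited 1 table giving the intensity of 45101 probe sets per array. The submitters' processing notes name MAS5, without a version, and a log2 transformation is mentioned in the series text. The deposited intensities were linear, up to 40821, with a trimmed mean of 500 on every array, so log2(signal + 16) was computed from them. The number of arrays limits the precision, and detection calls were not used here.

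The 64 control probe sets were left out, and 34945 others had 1 gene symbol in the platform annotation of 2016, 932 had several and 9160 none. Probe sets whose mean log2 signal reached the median of such means (7.04) passed the filter. The brightest probe set that passed stood for each of 11392 genes, and the members were read from all of their probe sets. limma 3.58.1 in R 4.3.3 (lmFit and trended eBayes, two-sided, Benjamini-Hochberg adjustment over all genes) compared KA/KA with WT over the 5 arrays, and again with the array set as a block; it was tested on simulated data. The sets were told apart by the median log2 signal of 24 poly-A control probe sets, above or below 10. With 10 splits of 3 against 2 arrays, the smallest p of an exact permutation test is 0.1, and none was made.

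The members, the 16 gene lists and the block were chosen with earlier results of these data known. Of each list the genes named were drawn from those of largest mean difference on the lung-like arrays with both KA/KA arrays on the same side of WT 2, at most 8 for dendritic cell lists and 3 for others, and not all of them are named. Ccr7, Cd40, Il12b, Flt3, Kmo and Ltf were added after their values were seen. Over 1 log2 unit was used as the size threshold for single arrays. Promoter sequences came from RefSeq (GRCm38.p6), and the table held 8 of the 9 genes. The motifs for the cyclic AMP element and the TATA box were added after the Fscn1 sequence had been read. The NF-κB and interferon response letters replaced longer forms, searched first, that matched none of the members' promoters. The alternatives were constants of 1 and 64, quantile or median scaling between arrays, the 20th percentile as a floor, other filters and probe set rules, other eBayes settings, blocks, and leaving out each array.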

Additional observations from a re-analysis of the deposited data

Results flagged for a closer look

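Clec10a differed by over 1 log2 unit between genotypes on the lung-like arrays and by less than that in the pair. On the lung-like arrays both KA/KA arrays were above WT 2, by 2.68 and 1.12 (mean 1.90). KA/KA 1 read slightly below WT 1 (-0.23), a gap between single arrays too small to give a direction. The difference between the sets was not tested. Monocyte and macrophage genes had a median of 2.01 on the lung-like arrays and 0.15 in the pair.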

How the results depend on the processing

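Over the 5 arrays without a block, limma called 0 genes in every setting tried, leaving out each array included, with 5 to 186 genes at an unadjusted p under 0.05. With the array set as a block it also called 0 in every setting with all arrays, and 0 to 5 when an array was left out. The 5 came without KA/KA 2 (Ms4a4b, Ccl8, Retnla, Marco and Rnase2a) and 1, Xist, without KA/KA 3, and none is a member. The labels' replicate number as a block also called 1 gene, Xist; the numbers are not stated to pair the mice, and arrays of number 1 and of number 2 deviated together from their group means (r = 0.88 and 0.65 across genes, which are not independent), along the array sets. The excess of the maturation genes over the subset genes on the lung-like arrays (1.77) ran from 1.14 to 2.24 without KA/KA 3 or KA/KA 2, and was 0.70 with averaged probe sets and 0.78 in the upper 25% of signal. In the other settings it stayed between 1.20 (the main filter applied to the members, a setting chosen after seeing the data) and 1.85, and in the pair between 0.85 and 1.21. Without _s, _x and _a probe sets, Marcksl1 and Cd209a have no value and Fscn1 differed by 0.59 on the lung-like arrays and 0.13 in the pair. Of 89 values of the 8 genes on the lung-like arrays, 2 changed sign, for Zbtb46 and Xcr1 without KA/KA 2, and of 73 in the pair 1 did, for Zbtb46 with averaged probe sets. The cause of these changes was not tested.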
